A study of Mus musculus with 4 samples.

Results

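The 10 nuclear genes described here shape mitochondria or belong to their outer membrane, and were followed between isolated mitochondria and a total fraction of brown adipose tissue (BAT), the heat-producing fat of mice. The members were taken by symbol from the deposited table, and 10 of its 17259 genes matched. They comprised the fusion genes Mfn1, Mfn2 and Opa1, the fission genes Dnm1l, Mff and Fis1, the channel genes Vdac1, Vdac2 and Vdac3, and the outer membrane anchor gene Akap1. RNA had been sequenced from wild-type (WT) mice in 4 libraries, 2 of isolated mitochondria (BAT-Mito) and 2 titled BAT-total. The treatment label of the BAT-total libraries names tissue without mitochondria, whereas the study also speaks of total lysates, so that these libraries hold either the remainder or the whole tissue. Age and sex are not given in the labels used here, nothing says that the samples of a group came from separate animals, and the p-values therefore measure only the spread between these samples, which may be technical. For hearts, the study describes digitonin and RNase A treatment of the mitochondria before RNA was extracted, which digests RNA that the enzyme can reach. Whether the BAT mitochondria were treated in this way is not given in the sources used here.

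Mitochondria constantly fuse and divide. Mitofusins join the outer membranes and OPA1 joins the inner membranes, while DRP1, the product of Dnm1l, is recruited to outer membrane receptors and constricts the organelle. All of these proteins are encoded in the nucleus, and some nuclear mRNAs are known to be translated at the outer membrane, where AKAP1 can hold both protein kinase A and mRNAs. The comparison of BAT-Mito with BAT-total addresses how much of each mRNA accompanied the isolated mitochondria.

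All 10 mRNAs were detected in every library, but only by a few reads in mitochondria. The deposited values are normalized counts, gene counts divided by a size factor per library and rounded. In BAT-Mito these values rise in steps of 8.32 and 6.90 units per read in replicates 1 and 2, so that reads could be recovered there. The 10 genes together received 65 of 26288871 reads in BAT-Mito replicate 1 and 152 of 24910434 in replicate 2, between 1 and 43 reads per gene and library. Reads behind the BAT-total values are unknown. Exact Poisson and Wilson intervals below are 95% intervals and cover counting error only.

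On the deposited scale, the BAT-Mito values of 8 of the 10 genes lay below both BAT-total values, while those of Vdac1 and Vdac3 overlapped with BAT-total. None had both BAT-Mito values above BAT-total. Of all 8215 genes tested, 52.1% lay below BAT-total in this way and 8.59% above. With limma on log2(normalized count + 1) all 10 log2 fold changes were below 0, as were 81.2% of those of all genes, but those of Mff and Vdac1 were above 0 with TMM scaling (0.056 and 0.39). At an adjusted p under 0.05 limma called 0 of the 10 lower and 0 higher, against 4.41% and 0.803% of all genes. At an unadjusted p under 0.05 it placed 4 of the 10 lower, Akap1, Dnm1l, Vdac2 and Mfn1, against 14.9% of all genes. With edgeR on reads 1 of the 10, Akap1, was lower and 0 were higher, against 2.50% and 2.17% of all genes. DESeq2 on reads also called 1 lower, Akap1, and 0 higher, against 3.14% and 2.79% of the 6781 genes to which it gave an adjusted p. In both count models the BAT-total values were taken as reads. The ratio of the BAT-Mito to the BAT-total level moves with the scaling and is given on the deposited scale. Its Poisson interval, for the BAT-Mito reads alone, lay wholly below 1 for 6 genes. Besides Akap1 and Mfn1, given below, these were Mfn2 at 0.638 (0.487 to 0.821), Opa1 at 0.404 (0.281 to 0.562), Dnm1l at 0.343 (0.148 to 0.676) and Vdac2 at 0.382 (0.226 to 0.603). The interval included 1 for Mff (0.384 to 1.13), Fis1, Vdac1 (0.756 to 1.38) and Vdac3 (0.418 to 1.34). These intervals leave out the spread between libraries, on which the tests rest.

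**Figure D1:**
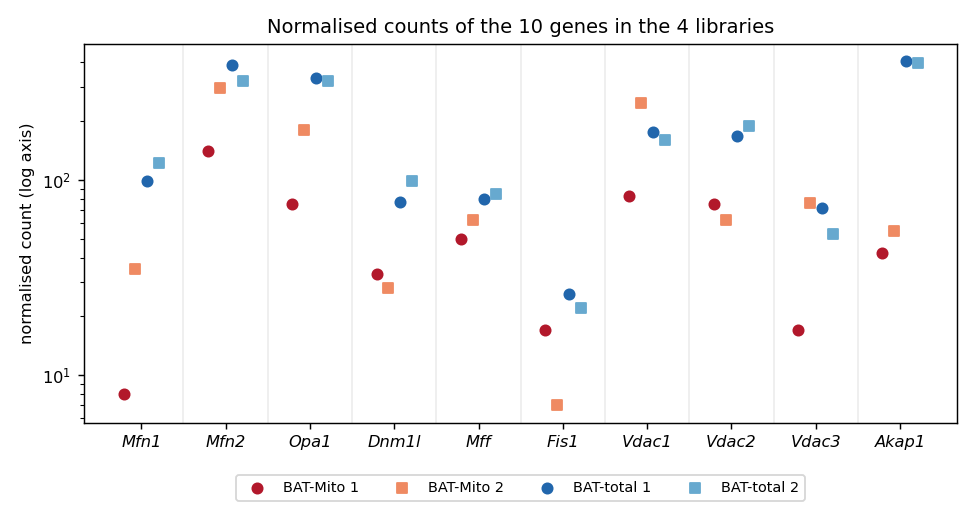
Normalized count (log axis) of each gene in BAT-Mito replicates 1 and 2 (red) and BAT-total replicates 1 and 2 (blue), 1 point per library. Akap1 shows the widest gap, 42 and 55 against 405 and 395, and the points of Vdac1 and Vdac3 overlap between the groups.

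The median log2 fold change of the 10 genes was -1.21, and that of all genes tested was -1.23. With edgeR on reads the medians were -1.21 and -0.81. The median of the 10 genes thus lay 0.017 above that of all genes with limma, and with edgeR the difference was -0.40 on the log2 scale. Relative to the median of all genes, 5 of the 10 lay higher with limma and 4 with edgeR. Because the size factors decide where 0 lies on this scale, values relative to the median of all genes are also given below. In limma a scaling shifts all genes by 1 amount, so that such distances cannot move with it. With limma the difference between the medians turned below 0 with a pseudocount of 10 (-0.28), at a mean of at least 50 (-0.41), with genes without BAT-Mito reads set to the bound that the floor of 3 reads gives (-0.13), and without BAT-Mito replicate 1 (-0.27) or 2 (-0.30).

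**Figure D2:**
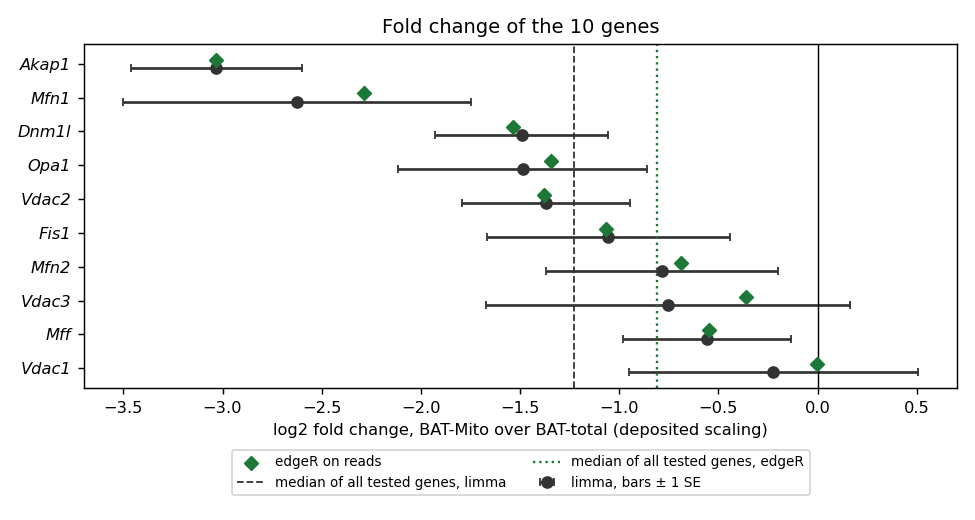
Log2 fold change of BAT-Mito over BAT-total for each gene with limma (circles, bars ± 1 SE, n = 2 per group) and edgeR on reads (diamonds). Vertical lines mark 0 and the medians of all 8215 tested genes, -1.23 with limma and -0.81 with edgeR. Akap1 and Mfn1 lie farthest below these medians and Vdac1 farthest above.

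The 3′UTRs of the members were searched for the Pumilio element TGTANATA, since the yeast protein Puf3 binds this kind of element in mRNAs of mitochondrial proteins and brings them to the organelle. This search was chosen after the fold changes were known. On the RNA strand of 1 transcript per gene, 6 of the 10 genes held 7 elements, against 27.1% of 7628 tested protein-coding genes with a 3′UTR. Among genes with at least 500 bases of 3′UTR the last 500 bases held it in 4 of 7 members and in 15.1% of 5506 genes. The 30-base stretches are shown with the element in capitals and come from GENCODE M21 (GRCm38), at chr11:88831264-88831293 and chr11:88831152-88831181 (minus strand) in exon 11 of Akap1, chr3:32578039-32578068 (plus) in exon 18 of Mfn1, chr16:16312249-16312278 (minus) in exon 19 of Dnm1l, chr1:82751929-82751958 (plus) in exon 11 of Mff, chr5:136966194-136966223 (plus) in exon 5 of Fis1 and chr14:21845678-21845707 (plus) in exon 10 of Vdac2.
Akap1, upstream element: ttaaacatagaTGTAAATAaggaacagttt
Akap1, downstream element: tgttcgaactcTGTAAATAatatgtttaaa
Mfn1: atggaaatgctTGTAAATAgcagacaggat
Dnm1l: tgtatgttctaTGTAAATAaaaatgctggt
Mff: tttgcatgtctTGTAAATAggctctaggtt
Fis1: tttgcaatgagTGTAAATAaaattgggccg
Vdac2: aataaaacaagTGTACATAactaatggctc

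In all but Vdac2 the element read TGTAAATA, and Akap1 alone among the 10 held it at a pair of places. The 6 genes with the element had a median limma log2 fold change of -1.43, in a range from -3.03 to -0.56, and the 4 without it, Mfn2, Opa1, Vdac1 and Vdac3, of -0.77, in a range from -1.49 to -0.22. Over all genes of the search the medians were -1.47 for 2066 with and -1.19 for 5562 without the element. A match of letters is a description and not a site shown to be bound, and the Opa1 transcript searched has only 133 bases of 3′UTR.

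Akap1 (ENSMUSG00000018428, minus strand, chr11:88830792-88864586, GRCm38) encodes the anchor that tethers protein kinase A, and through its RNA-binding domain mRNAs, to the outer membrane. Its normalized counts were 42 and 55 in BAT-Mito, from 5 and 8 reads, and 405 and 395 in BAT-total. The groups were far apart and each was tight. The level in BAT-Mito was 8.16-fold lower (Poisson interval 4.77 to 15.3) from 13 reads. Its log2 fold change was -3.03 (SE 0.43), with a limma adjusted p of 0.071, an edgeR adjusted p of 0.0244 and a DESeq2 adjusted p of 0.000182. Measured from the all-gene median, this was -1.80 with limma and -2.22 with edgeR. Whether limma called Akap1 depended on single libraries. Without BAT-Mito replicate 1 or 2 the limma adjusted p was 0.0154 and 0.0146, in fits that called 41.1% and 47.0% of all genes lower, and without BAT-total replicate 1 or 2 it was 0.789 and 0.794. In these fits the library left alone in its group is assumed to vary like the other group.

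The fusion genes lay below BAT-total in both BAT-Mito libraries, and none of the 3 was called with limma, edgeR or DESeq2. Mfn2 (ENSMUSG00000029020, minus strand, chr4:147873599-147904704), a mitofusin that also links mitochondria to the endoplasmic reticulum, had 141 and 297 normalized counts in BAT-Mito, from 17 and 43 reads, and 388 and 322 in BAT-total. Its log2 fold change was -0.79 (SE 0.59, limma adjusted p 0.466), and -0.25 and -1.32 without BAT-Mito replicates 1 and 2. Mfn1 (ENSMUSG00000027668, plus strand, chr3:32529465-32579239), the mitofusin that mainly tethers neighbouring organelles for fusion, had 8 and 35 normalized counts in BAT-Mito, from 1 and 5 reads, against 99 and 122 in BAT-total. Both BAT-Mito values were far below BAT-total but differed widely from each other. The log2 fold change of Mfn1 was -2.62 (SE 0.88), not past the threshold with limma (adjusted p 0.276) or edgeR (0.0611). Without BAT-Mito replicate 1 it was -1.62 and without replicate 2 -3.62. Its level in BAT-Mito was 0.205 of that in BAT-total (Poisson interval 0.0752 to 0.446). The ratio of Mfn1 to Mfn2 within a library, which no scaling can move, was 0.0588 and 0.116 in BAT-Mito and 0.255 and 0.379 in BAT-total. The exact binomial interval of the first BAT-Mito ratio, 0.00141 to 0.375, included 1 of the BAT-total ratios, and that of the second, 0.0359 to 0.293, likewise.

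The mitofusin genes have little identical sequence. The longest run that the coding sequences of Mfn1 and Mfn2 have in common measures 21 bases, shown here because a 75-base read is longer than it. It lies at chr3:32544100-32544120 in exon 6 of Mfn1 and at chr4:147887470-147887490 in exon 8 of Mfn2 (GRCm38, GENCODE M21).
Mfn1 and Mfn2: ctggattgataagttttgcct

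Opa1 (ENSMUSG00000038084, plus strand, chr16:29579334-29654884), the dynamin-like GTPase of the inner membrane, had 75 and 179 normalized counts in BAT-Mito, from 9 and 26 reads, and 333 and 321 in BAT-total. The BAT-Mito values lay below BAT-total in both libraries. The log2 fold change was -1.49 (SE 0.63, limma adjusted p 0.314). Without BAT-Mito replicate 1 it was -0.87 and without replicate 2 -2.11. The Opa1 to Mfn2 ratio was 0.529 and 0.605 in BAT-Mito and 0.858 and 0.997 in BAT-total, and the exact binomial intervals of the former, 0.208 to 1.256 and 0.357 to 1.01, included both BAT-total ratios.

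None of the 3 fission genes was called with limma, edgeR or DESeq2, and 1, Dnm1l, had an unadjusted limma p under 0.05. All 3 lay below BAT-total in both BAT-Mito libraries. Dnm1l (ENSMUSG00000022789, minus strand, chr16:16312230-16358959), which encodes the constricting GTPase DRP1, had 33 and 28 normalized counts in BAT-Mito, from 4 reads in each, and 77 and 99 in BAT-total. Its log2 fold change was -1.49 (SE 0.44, limma adjusted p 0.247, edgeR 0.102). Mff (ENSMUSG00000026150, plus strand, chr1:82724890-82752394), a tail-anchored receptor for DRP1, had 50 and 62 against 80 and 85 normalized counts, from 6 and 9 reads in BAT-Mito. The value for Mff on the log2 scale was a fold change of -0.56 (SE 0.42, limma adjusted p 0.471), 0.67 above the median of all genes, and its sign turned with another scaling, 0.096 with median ratios of nuclear genes. Fis1 (ENSMUSG00000019054, plus strand, chr5:136953275-136966234), the small tail-anchored fission protein gene, had 17 and 7 against 26 and 22 normalized counts. With 3 reads in both BAT-Mito libraries together, its level there was 0.472 of that in BAT-total with a Poisson interval from 0.0973 to 1.38, so that no difference was detectable at this depth. Its log2 fold change was -1.05 (SE 0.61, limma adjusted p 0.389), and -1.64 and -0.47 without BAT-Mito replicates 1 and 2. The ratio of Dnm1l to Mff was 0.667 and 0.444 in BAT-Mito and 0.963 and 1.16 in BAT-total, all within the intervals of both BAT-Mito libraries.

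The VDAC genes encode the beta-barrel pores through which ATP, ADP and other metabolites cross the outer membrane. Vdac1 (ENSMUSG00000020402, plus strand, chr11:52360860-52389397) had 83 and 248 normalized counts in BAT-Mito, from 10 and 36 reads, and 176 and 160 in BAT-total. One BAT-Mito library lay below and the other above BAT-total. With limma the log2 fold change was -0.22 (SE 0.73, limma adjusted p 0.845), the highest of the 10. It became 0.56 without BAT-Mito replicate 1 and -1.01 without replicate 2. With another scaling it was also above 0, 0.43 with median ratios of nuclear genes.

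Vdac2 (ENSMUSG00000021771, plus strand, chr14:21825238-21845879), whose product also holds the cell death protein BAK, had 75 and 62 normalized counts in BAT-Mito, from 9 reads in each, and 168 and 188 in BAT-total. These groups did not overlap. The log2 fold change was -1.37 (SE 0.42, limma adjusted p 0.263, edgeR 0.108). Vdac3 (ENSMUSG00000008892, minus strand, chr8:22577075-22593813) had 17 and 76 normalized counts in BAT-Mito, from 2 and 11 reads, and 72 and 53 in BAT-total, which is an overlap. Its log2 fold change was -0.75 (SE 0.92, limma adjusted p 0.614). It turned to 0.29 without BAT-Mito replicate 1 and to -1.80 without replicate 2. The ratio of Vdac1 to Vdac2 was 1.11 and 4.00 in BAT-Mito and 1.05 and 0.851 in BAT-total. The exact binomial interval of replicate 1, 0.406 to 3.09, included both BAT-total ratios, and that of replicate 2, 1.89 to 9.44, included neither.

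Vdac2 and Vdac3 share exact 75-base sequence with annotated pseudogenes, and Vdac1 does not. The authors also aligned shorter trimmed reads and allowed mismatches, which this exact search does not cover. Of all 75-base windows in annotated Vdac3 transcripts 11.4% also occur in Vdac3-ps1 or Gm7591, and 1.49% of those of Vdac2 occur in Gm7832. The same held for 3.12% of the Dnm1l windows, found in Gm13719 or Gm49521, and 1.18% of the Mff windows, found in C430014B12Rik, while the other 6 genes shared no window with another annotated gene. Reads with several positions were left out by the authors. The longest runs in common between coding sequences, shown to set them against the read length, were 17 bases for Vdac1 and Vdac2, at chr11:52376487-52376503 in exon 4 and chr14:21837840-21837856 in exon 5, and 15 bases for Vdac2 and Vdac3, at chr14:21840515-21840529 in exon 8 and chr8:22579032-22579046 in exon 7 (GRCm38).
Vdac1 and Vdac2: acagagaagtggaacac
Vdac2 and Vdac3: cactcgttttggcat

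The makeup of the group, the share of each gene in the summed level of all 10, does not depend on how libraries are scaled. Akap1 took 22.2% and 22.4% of the sum in BAT-total and 7.69% (Wilson interval 3.33 to 16.8%) and 5.26% (2.69 to 10.0%) in BAT-Mito. Both intervals lay below both BAT-total shares, and Akap1 was the only one of the 10 of which this held. The mean shares were 22.3% ± 0.106 in BAT-total and 6.48% ± 1.72 in BAT-Mito (SD, n = 2 each). Vdac1 took 9.65% and 9.05% in BAT-total and 15.4% (8.58 to 26.1%) and 23.7% (17.6 to 31.0%) in BAT-Mito, so that the interval of replicate 2 but not of replicate 1 lay above BAT-total. Mfn2 was the largest component of BAT-Mito with 26.2% (17.0 to 37.95%) and 28.3% (21.7 to 35.9%), against 21.3% and 18.2% in BAT-total, and here too the interval of replicate 2 alone lay above. For Vdac3, at 3.08% and 7.24% against 3.95% and 2.999%, this held as well, although the shares overlapped. The shares add up to the whole, and a lower share of Akap1 raises the others. With 2 libraries against 2 an exact two-sided permutation test cannot give a p below 0.333, which was the value for the 6 genes whose shares did not overlap, Akap1, Mfn1 and Opa1 with lower and Vdac1, Mfn2 and Mff with higher shares in BAT-Mito.

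**Figure D3:**
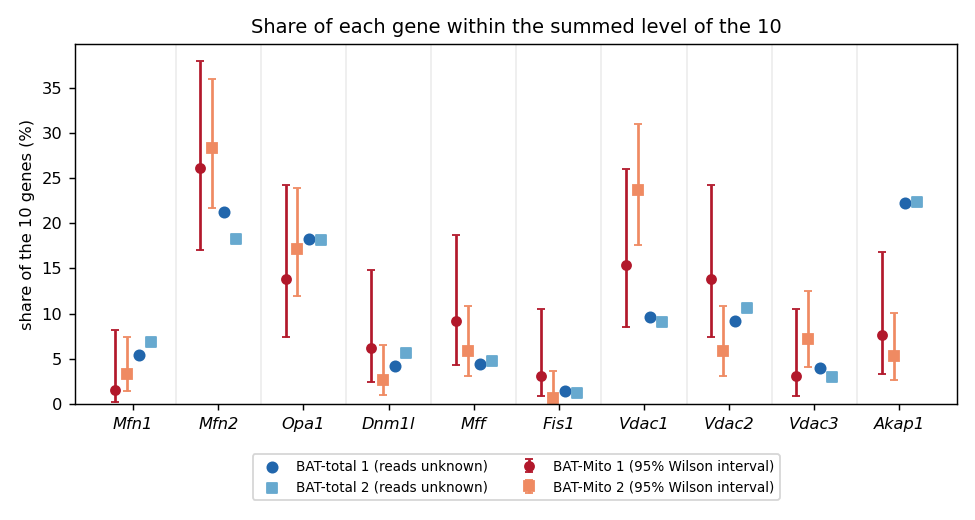
Share (%) of each gene in the summed level of the 10 genes, 1 point per library, with 95% Wilson intervals for the BAT-Mito libraries, whose reads are known. Akap1 took 22.2% and 22.4% in BAT-total and 7.69% and 5.26% in BAT-Mito, and the Vdac1 share of BAT-Mito replicate 2, 23.7%, exceeds both BAT-total shares beyond its interval.

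Per kilobase of exon the order of the genes differed between the fractions. In BAT-total the level per kilobase was highest for Akap1, 92.3 and 89.98 normalized counts in the 2 libraries, followed by Mfn2 with 74.7 and 62.0 and Vdac1 with 67.2 and 61.1. Mfn2 and Vdac1 overlapped and could not be ordered beyond their spread. Opa1 had 42.3 and 40.8 and Vdac2 35.2 and 39.4. The other 5 genes lay at a mean of 18.1 or lower, with Mfn1, Dnm1l and Fis1 each overlapping with the next, Vdac3 following, and Mff last at 8.46 without overlap. In BAT-Mito the highest mean level per kilobase was that of Vdac1, 31.7 and 94.7, which overlapped with Mfn2 at 27.1 and 57.2. Akap1 came at rank 5 with 9.57 and 12.5 and Mfn1 at rank 10 with 1.31 and 5.72. Vdac1 and Mfn2 lay above Opa1, 9.52 and 22.7, in both libraries. Further down, apart from Vdac2 at 15.7 and 13.0 just above Akap1, neighbours in this order overlapped. Lengths are those of all annotated exons of a gene and not of the isoforms in use.

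The 2 BAT-Mito libraries disagreed about these genes more than the BAT-total libraries did, except for Dnm1l (log2 ratios of -0.24 and 0.36). The BAT-Mito values rest on 1 to 43 reads per gene and library, and the part of counting error in this was not tested. Replicate 2 exceeded replicate 1 for 7 of the 10 genes, with a median log2 ratio of 0.73, against 50.9% and 0.085 over the 5181 nuclear genes with reads in both. The largest log2 ratios between the BAT-Mito libraries were those of Vdac3 (2.16) and Mfn1 (2.13). Between the BAT-total libraries no member differed by more than 0.44 in either direction on that scale. Of the reads on nuclear genes without a match to mitochondrial transcripts, the 10 genes took 0.110% (Wilson interval 0.0860 to 0.140%) in BAT-Mito replicate 1 and 0.226% (0.193 to 0.264%) in replicate 2. In BAT-total they took 0.247% and 0.244%, inside the interval of replicate 2 and above that of replicate 1.

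Markers of other organs and of cell types differed between libraries, without a pattern common to all lists. The 8 liver genes summed to 12266 and 815 normalized counts in BAT-Mito replicates 1 and 2 and to 201 and 6 in BAT-total, where 4 of the 8 were at 0 in replicate 2. The 8 skeletal muscle genes summed to 3529 and 1104 against 331 and 698, the 5 red cell genes to 250 and 635 against 296 and 624, and the 6 macrophage genes to 267 and 234 against 71 and 75. The 6 endothelial genes summed to 100 and 7 against 904 and 971, with 5 of the 6 at 0 in BAT-Mito replicate 2. Brown adipocyte markers, Ucp1 among them, summed to 2821 and 8012 in BAT-Mito and 13640 and 12165 in BAT-total, with a median log2 fold change of -1.62 over 10 genes. Their part in the values of the 10 members was not tested, and in these bulk samples fewer cells of a type and less RNA per cell cannot be told apart. Transcripts of the mitochondrial genome took 95.3% and 95.5% of the BAT-Mito totals and 51.1% and 59.3% of the BAT-total ones. The genes that the naming rule took from the marker lists were Alb and Apoa1 (log2 fold changes of 6.14 and 6.10), Myh1 and Myh2 (2.63 and 2.50), Csf1r and C1qa (2.33 and 1.97), Dio2 and Cidea (-3.35 and -2.29), and the endothelial Cdh5 and Pecam1 (-5.24 and -5.07), none of them called with limma. With edgeR Apoa1 and Myh1 were called higher and Dio2, Cdh5 and Pecam1 lower, and DESeq2 called these but Cdh5, and Alb as well. With median ratios of nuclear genes edgeR lost Cdh5 (adjusted p 0.0856) and gained Alb (0.0371), Myh2 (0.0281) and Csf1r (0.0193). Over the lists, edgeR and DESeq2 called 5 and 6 of the 8 liver genes and 1 and 1 of the 8 muscle genes higher, and 5 and 3 of the 6 endothelial and 1 and 1 of the 10 brown adipocyte genes lower. Single libraries moved many of these values. Leaving out 1 library gave 3.83 to 8.45 for Alb, 4.07 to 8.14 for Apoa1, 1.35 to 3.65 for Myh2, 0.86 to 3.08 for C1qa, 1.49 to 3.16 for Csf1r and -3.20 to -1.39 for Cidea. Cdh5 and Pecam1 had 0 reads in BAT-Mito replicate 2, and they were at -3.66 and -4.18 with edgeR, and with limma at -7.95 and -7.15 without BAT-Mito replicate 1 and at -2.52 and -2.98 without replicate 2. The 6 above 0 here turned below it with CPM over all genes. Limma called Egfl7 lower (adjusted p 0.0249), an endothelial gene with 0 reads in BAT-Mito, as did edgeR and DESeq2, at least 3.79-fold lower against the floor of 3 reads per library. Its limma call was lost with a pseudocount of 10 (adjusted p 0.0724) and without BAT-total replicate 1 (0.439) or 2 (0.446).

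Of 37 other genes of mitochondrial dynamics 32 passed the filter, 23 lay below BAT-total in both BAT-Mito libraries and 0 above, where 52.1% and 8.59% of all genes did so. Limma called 1 lower and 0 higher (all genes 4.41% and 0.803%), with 5 at an unadjusted p under 0.05 in either direction (18.1%), and edgeR 1 lower and 0 higher (2.50% and 2.17%), while DESeq2 called 0. The limma call was Apool, a cristae junction gene of the MICOS complex, with 0 reads in both BAT-Mito libraries and 39 and 35 normalized counts in BAT-total (limma adjusted p 0.0249, edgeR 0.0710). Against the floor of 3 reads per library it was at least 1.62-fold lower. DESeq2 did not call it (adjusted p 0.0749), and the limma call was lost with a pseudocount of 10 (adjusted p 0.0916) and without BAT-total replicate 1 (0.439) or 2 (0.446). The edgeR call was Mief1, another outer membrane receptor for DRP1, which falls outside the naming rule and was chosen after its values were seen, with 8 and 0 against 58 and 70 normalized counts (edgeR adjusted p 0.0489, limma 0.245). Spg7 and Yme1l1, subunits of inner membrane proteases, were not called and had log2 fold changes of -1.89 (SE 0.47, limma adjusted p 0.210) and -3.41 (SE 2.49, adjusted p 0.459), the latter with 10 reads in BAT-Mito replicate 1 and 0 in replicate 2. For Yme1l1 edgeR gave -1.32, and limma -6.61 and -0.21 without BAT-Mito replicates 1 and 2. The median log2 fold change of this list was -1.71, and -1.16 with edgeR. Of its 37 genes 10 were at 0 in BAT-Mito replicate 1 and 13 in replicate 2, whereas no member was at 0.

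Among the other outer membrane genes, 38 listed and 34 tested, 20 lay below BAT-total in both BAT-Mito libraries and 1 above (all genes 52.1% and 8.59%). Limma called 0 in either direction, with 7 at an unadjusted p under 0.05 (18.1%), while edgeR and DESeq2 each called 1 lower, Acsl1 (2.50% and 3.14%). Acsl1, the acyl-CoA synthetase that activates long-chain fatty acids, had 541 and 421 normalized counts in BAT-Mito and 2510 and 2264 in BAT-total, a log2 fold change of -2.32 (SE 0.43), with adjusted p-values of 0.138 with limma and 0.0310 with edgeR, the latter lost with median ratios of nuclear genes (0.115). Hk2, a hexokinase that docks on VDAC, had 58 and 207 against 526 and 709 (log2 fold change -2.47, SE 0.82, limma adjusted p 0.276). Without BAT-Mito replicates 1 and 2 the log2 fold change of Hk2 was -1.56 and -3.37. Cpt1a, the carnitine acyltransferase of the outer membrane, was the single gene of this list with both BAT-Mito values above BAT-total, 92 and 28 against 26 and 14, without a call (limma adjusted p 0.403). Its log2 fold change of 1.37 was 0.53 and 2.21 without BAT-Mito replicates 1 and 2. It turned to -5.43 when libraries were scaled to equal totals. The median of this list was -1.0005, and -0.76 with edgeR. Profiles over the 4 libraries were compared with the median profile of the 10 genes by Euclidean distance of gene-centred log2 values. Among the tested genes of this list and of the other dynamics list, the nearest were Trak1 of the latter (0.238), Samm50 (0.313) and Mcl1 (0.352).

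mRNAs and factors of translation at the outer membrane were listed separately. All 12 were tested, and 9 lay below BAT-total in both BAT-Mito libraries (all genes 52.1%). Limma and edgeR called 0, with 2 at an unadjusted limma p under 0.05 (18.1%), while DESeq2 called 1 lower (3.14%), Pcx, a pyruvate carboxylase gene named after its values were seen (108 and 159 against 527 and 478 normalized counts, DESeq2 adjusted p 0.0172). The median log2 fold change was -1.07, and -0.95 with edgeR. Larp4, an RNA-binding protein that attaches to AKAP1, had 50 and 14 against 133 and 112 normalized counts (log2 fold change -2.15, SE 0.80, limma adjusted p 0.291), and Ndufs1, a complex I subunit gene, had 92 and 242 against 611 and 564 (-1.97, SE 0.67, adjusted p 0.277). Without BAT-Mito replicates 1 and 2, Larp4 was at -3.04 and -1.27 and Ndufs1 at -1.27 and -2.66. Of 6 cytosolic reference genes limma, edgeR and DESeq2 called 0, also 0 at an unadjusted limma p under 0.05. Their median was -0.28, with Actb at -0.31 (SE 0.65), above 0 with TMM (0.31), and Gapdh at -1.21 (SE 0.91), which became -0.16 and -2.26 without BAT-Mito replicates 1 and 2. Eef2 was at -0.73.

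**Figure D4:**
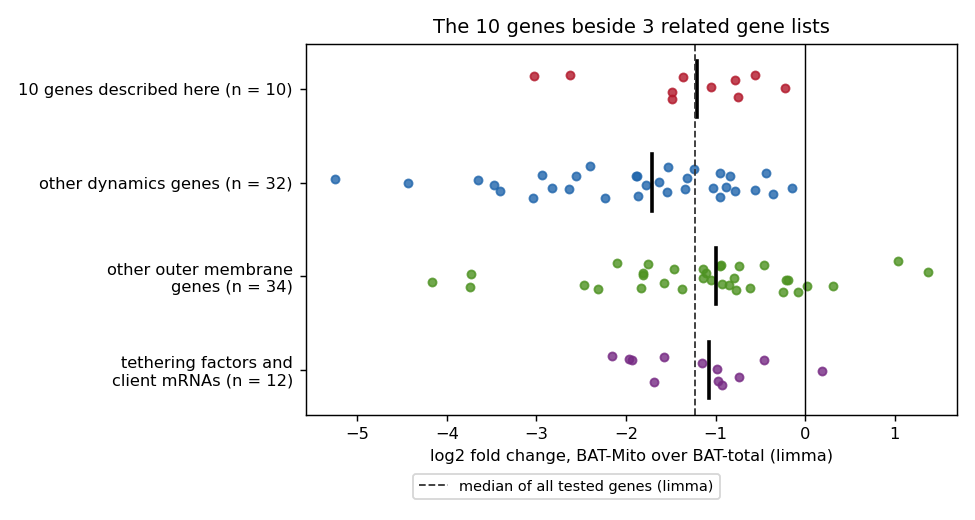
Log2 fold change of BAT-Mito over BAT-total (limma) for the 10 genes and 3 related lists, 1 point per gene, with list medians as black bars and the median of all tested genes dashed. The medians were -1.21 for the 10 genes, -1.71 for other dynamics genes, -1.0005 for other outer membrane genes and -1.07 for tethering factors and client mRNAs. With edgeR those of the 10 genes and of other dynamics genes were -1.21 and -1.16.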

How the data were processed

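RNA of 4 BAT libraries was compared, 2 per group by their titles. According to the methods, the authors aligned single-end 75-base reads to GRCm38 and counted them per gene without reads of several positions or genes. Per the labels, Trimmomatic 0.39, STAR 2.7.10a, featureCounts 2.0.2 and DESeq2 1.30.1 were used. The authors adjusted fragmentation of mitochondrial RNA, so that preparation may differ between the groups. The deposited signal is a gene count divided by a size factor and rounded to whole numbers. Steps in the BAT-Mito values gave whole reads for 100.0% of values, within 1 unit. Totals were 218773335 and 171918657 normalized counts in BAT-Mito and 1590096 and 1905303 in BAT-total.

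Genes with a mean of at least 10 (8215) were tested on log2(normalized count + 1) with limma 3.58.1 in R 4.3.3, two-sided, adjusted by Benjamini-Hochberg over all genes. edgeR 4.0.16 and DESeq2 1.42.0 took recovered reads in BAT-Mito and deposited values as reads in BAT-total. Scripts were tested on simulated data. Other alternatives covered pseudocount, filter, 5 scalings, the trend option, the replicate block, genes without BAT-Mito reads at their bound and leaving out each library. Members and lists were chosen with earlier results of these data known. Named were the members, listed genes called by limma, up to 2 per list and direction with the largest change and groups apart (at least 10 BAT-Mito reads or a BAT-total mean of at least 100), Actb, Gapdh and the 3 nearest profiles. Coordinates of 99.1% of genes equal those of GENCODE M21.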

Additional observations from a re-analysis of the deposited data

How the results depend on the processing

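Of the 10 members 0 were called lower with limma. This count became 3 with all genes of any count (Akap1, Dnm1l and Vdac2, where 20.8% of genes were called lower), 1 each at a mean of at least 50, with the trend option, edgeR on reads, DESeq2 on reads and edgeR with median ratios of nuclear genes (Akap1 in each, the last chosen after seeing the data), and 10 each with CPM over all or over nuclear genes (96.7% and 80.4% of all genes). Leaving out 1 library gave 0 to 7, with 6 without BAT-Mito replicate 1 (Akap1, Mfn1, Opa1, Dnm1l, Fis1 and Vdac2, where 3374 or 41.1% of all genes were called lower), 7 without replicate 2 (all but Dnm1l, Mff and Fis1, where 47.0% of all genes were) and 0 without either BAT-total replicate. In no alternative was a member called higher. Over all genes, 66 higher calls became 143 with any count, 2 with CPM over all genes, 178 with edgeR, 189 with DESeq2 and 248 with edgeR and median ratios, and 0 (without either BAT-total library) to 622 (without BAT-Mito replicate 2) on leaving out 1 library. The 362 lower calls became 1 with a pseudocount of 10, 3587 with any count, 11 at a mean of 50, 7940 and 6604 with CPM over all and over nuclear genes, 205 with edgeR, 213 with DESeq2 and 40 with edgeR and median ratios, and 0 to 3864 on leaving out the same libraries. With the replicate block there were 0 higher and 0 lower calls, none among the members, and Apool and Egfl7 each lost their call (adjusted p 0.158), while 944 genes had an unadjusted p under 0.05. No source gives equal replicate numbers a shared origin. The single pair of differences had a correlation of 0.112 over genes.

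The members' median of -1.21 became -0.60 with TMM, -0.56 with median ratios, -0.57 with edgeR and median ratios, -8.01 and -4.75 with CPM over all and over nuclear genes and -0.60 with CPM over nuclear genes without a mitochondrial match, and ran from -1.35 to -1.18 without 1 library. Each scaling moved all genes alike: the median of all genes, -1.23, became -0.62, -0.58, -8.03, -4.76 and -0.62 with the 5 scalings in limma. Signs turned with TMM, median ratios, the last CPM scaling, and edgeR with median ratios for Mff (0.056, 0.096, 0.051 and 0.097), Vdac1 (0.39, 0.43, 0.39 and 0.62) and Actb (0.31, 0.35, 0.30 and 0.46), and for Vdac3 in the last of these (0.27). Without BAT-Mito replicate 1 Vdac1, Vdac3 and Actb were at 0.56, 0.29 and 0.35, and without BAT-Mito replicate 2 at -1.01, -1.80 and -0.96. With CPM over all genes Cpt1a, Alb, Apoa1, Myh1, Myh2, Csf1r and C1qa turned to -5.43, -0.66, -0.70, -4.17, -4.30, -4.47 and -4.83, and with CPM over nuclear genes Cpt1a, Myh1, Myh2, Csf1r and C1qa to -2.17, -0.91, -1.03, -1.21 and -1.57. Akap1, Mfn1, Mfn2, Opa1, Dnm1l, Fis1 and Vdac2 stayed below 0 in all alternatives. Mfn2 came close to 0 with TMM (-0.17), median ratios (-0.13) and edgeR with median ratios (-0.055). For changes with the tests, the pseudocount and the trend option the cause was not tested. With 1 to 43 reads per member and BAT-Mito library, the Poisson interval of the ratio on the deposited scale included 1 for Mff, Fis1, Vdac1 and Vdac3. For Vdac1 the BAT-Mito libraries lay on opposite sides of BAT-total. Their Poisson intervals, 4.80 to 18.4 reads in replicate 1 and 25.2 to 49.8 in replicate 2, did not overlap.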
